A study of Mus musculus with 5 samples.

Results

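The 9 genes described here are 5 members of the CCN family of matricellular proteins (Ccn1, Ccn2, Ccn3, Ccn4 and Ccn5), the transcriptional co-activators Yap1 and Wwtr1 (Wwtr1 encodes TAZ), and Amotl2 and Ankrd1. They were taken by name from 29818 genes measured in single cells of mouse growth plate cartilage, and all 9 names were present in every library under their current symbols. Femoral and tibial cartilage came from 5 littermates, 2 labelled WT (pups 1 and 2) and 3 labelled mutant (pups 3, 4 and 5), with 1 BD Rhapsody library per pup. The mutant pups carried the p.R594H change of the cation channel gene Trpv4, knocked in on 1 allele and switched on by a hemizygous Col2a1-Cre transgene, which expresses Cre in chondrocytes. The labels give the strain as C57BL/6J, whereas the Cre line was made on a B6SJLF1 background before later crosses to C57BL/6J. The exact alleles of the WT pups in this experiment were not specified in the sources used here. The sample labels gave the age as postnatal day 5 and the series text as postnatal day 3. The question addressed is where in the growth plate and its surroundings each gene was expressed, and whether its level differed between the pups of the 2 labels within a cell class.

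CCN proteins are secreted, cysteine-rich modular proteins that bind integrins, proteoglycans and growth factors in the extracellular matrix. CCN1 (formerly CYR61) and CCN2 (formerly CTGF) are known as immediate early products of growth factor and mechanical stimulation, and loss of CCN2 in mice disturbs the growth plate. YAP and TAZ carry signals from the Hippo kinase cascade and from cell shape and tension to the nucleus. When the cascade is active they are phosphorylated and held in the cytoplasm; otherwise they bind TEAD transcription factors and activate genes such as Ccn1, Ccn2, Ankrd1 and Amotl2. AMOTL2, an angiomotin, in turn binds YAP and restrains it. Because the activity of YAP and TAZ is set largely by phosphorylation and location, their mRNA level is not a readout of that activity.

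UMIs (unique molecular identifiers, each marking 1 captured transcript) in the deposited tables totalled between 117746735 and 183322632 per pup. After filtering, 82516 of 84382 barcodes remained, with a median of 9261 and 8521 UMIs per cell in the WT-labelled pups and 6657, 6000 and 7016 in the mutant-labelled ones. Clustering without the 9 genes gave 46 clusters, of which 36 were placed in 17 classes by marker genes and 10 stayed unnamed and are called by their leading genes, for 27 classes or clusters in all. The cluster of 2554 cells led by Prlr, Dpt, Igf1 and Col6a6 scored highest for perichondrial markers, but Dpt, Igf1 and Tnxb also led a cluster of fibroblasts or synovial progenitors, and at a coarser clustering (resolution 0.8) 2184 of its cells took that name and 0 the perichondrial one, which went to other cells. It is therefore called by its leading genes, and perichondrial values at that setting do not describe it. Chondrocyte clusters numbered 18 and held 48322 cells (58.6%); Col2a1, encoding the main cartilage collagen, reached 20770 to 149400 CPM (UMI counts scaled to a common total per library) in them, against a median of 6295 CPM and a highest value of 60590 CPM in the other 28 clusters, so the tissue also held many cells that were not chondrocytes. Xist was detected in 89.8% and 88.4% of cells of pups 3 and 4 and in at most 0.174% of cells of the other 3 pups, so that sex differed within the mutant label and between the labels. This Xist pattern did not match other material of the study on the 2 labels, so every difference between labels rests on the labels as deposited. Trpv4 itself stood at 160 and 102 CPM in the WT-labelled pups and at 90.3, 148 and 175 CPM in the mutant-labelled ones. Counts per gene do not show the p.R594H allele, and the labels could not be checked from it. Between 3 and 7 cell barcodes were shared by any pair of libraries.

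The members are spread over the genome (GRCm38, the build named mm10 in the submitters' processing notes), with Ccn3 and Ccn4 on the same chromosome. Ccn1 lies at chr3:145646971-145649985, Ccn2 at chr10:24595442-24598683, Ccn3 at chr15:54745910-54753762, Ccn4 at chr15:66891369-66923201 and Ccn5 at chr2:163820752-163833146. Yap1 lies at chr9:7931999-8004638, Wwtr1 at chr3:57455644-57575910, Amotl2 at chr9:102717091-102733418 and Ankrd1 at chr19:36111965-36119844. All are annotated as protein-coding genes.

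TEAD factors, through which YAP and TAZ act, recognize GGAATG or its reverse complement CATTCC. RefSeq promoter windows of GRCm38.p6 were at hand for Ccn1, Yap1, Wwtr1, Amotl2 and Ankrd1, and in all 5 the 250 bases before the annotated start held the 6 letters on either strand, against 12.6% of 32851 windows of that length and 14.4% of 27025 genes. The match was held by 9 of 22 genes of the Hippo cascade and TEAD factors that had a window and by 4 of 14 YAP/TAZ target genes. Windows of 30 bases around each match are printed 5′ to 3′ on the gene's strand, with the matched letters in capitals, to show how the same core sits in both the target genes and the co-activator genes. The matches lay 103, 141, 170, 65, 210 and 123 bases before the start, in the order printed (for Wwtr1, 170 bases from the more downstream of 2 annotated starts and 136 from the other). The starts used for Amotl2 and Yap1, and the more downstream one of Wwtr1, lie inside the annotated span of the gene. A match of letters is a description of the window and does not show that a factor binds there.
Ccn1, chr3:145650071-145650100, minus strand: cgcgccaaccaaCATTCCtgagatgtttga
Yap1, chr9:8004720-8004749, minus strand: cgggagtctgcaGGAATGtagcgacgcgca
Wwtr1, chr3:57576029-57576058, minus strand: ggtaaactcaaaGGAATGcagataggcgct
Amotl2, chr9:102717727-102717756, plus strand: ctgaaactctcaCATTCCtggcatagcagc
Ankrd1, chr19:36120037-36120066, minus strand: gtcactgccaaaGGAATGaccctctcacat
Ankrd1, chr19:36119950-36119979, minus strand: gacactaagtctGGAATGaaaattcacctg

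The whole 250-base stretch before the start of Ccn1 (chr3:145649986-145650235, minus strand) is given because Ccn1 is the target gene followed furthest in the results; capitals mark CATTCC.
Ccn1 upstream: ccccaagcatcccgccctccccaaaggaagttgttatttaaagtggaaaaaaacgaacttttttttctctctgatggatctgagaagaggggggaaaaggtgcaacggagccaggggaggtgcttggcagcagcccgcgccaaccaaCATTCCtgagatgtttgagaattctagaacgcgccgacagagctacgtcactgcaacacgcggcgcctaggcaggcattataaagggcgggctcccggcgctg

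Ccn1 was highest in the proliferating and prehypertrophic chondrocytes, 3 clusters marked by Matn1 and Epyc, by Ihh, Pth1r and Panx3, and by the mitotic genes Cdk1 and Ccnb1. The first of these clusters was led by Arc, and Matn1 and Epyc were also among the leading genes of a resting cluster. In the proliferating and prehypertrophic class Ccn1 had 2349 and 2296 CPM in pups 1 and 2 and 2773, 2575 and 2597 CPM in pups 3, 4 and 5, a mean of 2518 ± 195 CPM (SD, n = 5). Levels by class are CPM scaled over all 27 classes and clusters by the trimmed mean of M values (TMM), and they are compared within a gene only. Classes come from clusters of the same cells, so differences between them are described and not tested. A chondrocyte cluster led by the glycolytic gene Aldoc and the histone gene H2ac6 had a similar level, 2323 ± 188 CPM, followed by a cluster led by Bmp7 and Notum at 1791 ± 335 CPM. A cluster of 296 cells led by Col10a1, the collagen of hypertrophic cartilage, which also carried the prehypertrophic markers Ihh, Pth1r and Panx3 among its leading genes, stood at 1631 ± 286 CPM.

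Resting chondrocytes comprised 3 clusters with Ucma among their leading genes and a cycling cluster of 2330 cells led by mitotic genes such as Cdc20 and Aurkb, which took the class of its other markers. Their Ccn1 level was 1194, 823, 618, 995 and 1062 CPM in pups 1 to 5, and 1049 ± 244 CPM with the cycling cluster left out. Every pup's proliferating and prehypertrophic chondrocytes lay above every pup's resting chondrocytes, and within pups the ratio was 2.74-fold, or 1.46 ± 0.44 on the log2 scale (SD, n = 5). Among 9907 genes with enough counts, 25.3% were placed above and 27.7% below in the same complete way between these classes, so such a separation is common. In the Col10a1-led cluster Ccn1 lay below the proliferating and prehypertrophic chondrocytes in all pups, by 0.64 ± 0.20 on the log2 scale, where 25.7% of 9658 genes did so. The Prlr- and Dpt-led cluster (1058 ± 192 CPM), tendon or ligament cells (874 ± 206 CPM) and articular chondrocytes (688 ± 186 CPM) overlapped the resting chondrocytes. Macrophages (268 ± 65.1 CPM) and granulocytes (249 ± 110 CPM) were near the low end, whereas erythroid cells had 783 ± 379 CPM (up to 1292 CPM in pup 5), a range that the resting, articular and tendon or ligament levels overlap.

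Ccn2 shared several high clusters with Ccn1, in another order. By class mean it was highest in the Col10a1-led cluster, at 1572, 949, 1179.7, 1493 and 1886 CPM in pups 1 to 5 (mean 1416 ± 362). It overlapped there with the Bmp7- and Notum-led cluster (1317 ± 382 CPM), the proliferating and prehypertrophic chondrocytes (1276 ± 289 CPM) and a cluster led by Spink5 and Mmp3 (1273 ± 543 CPM). Among the 3 proliferating and prehypertrophic clusters it was highest in the Ihh-marked one: the mean was 1735 CPM in the cluster led by Smpd3, Panx3 and Ihh, 1211 CPM in that led by Arc, Colgalt2 and Matn1 and 681 CPM in the mitotic cluster. Ccn1 varied less over the same 3 clusters (2670, 2479 and 2383 CPM). Taken alone, the Ihh-marked cluster averaged more Ccn2 than the Col10a1-led one. Pooled over pups without TMM, these had 1606 and 1272 CPM, and the Spink5- and Mmp3-led cluster 1380 CPM. Resting chondrocytes held 558 ± 150 CPM of Ccn2, and the proliferating and prehypertrophic chondrocytes of every pup lay above them, 2.30-fold within pups (log2 range 0.91 to 2.00).

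The Prlr- and Dpt-led cluster stood out from cartilage by its low Ccn2. At 212, 140, 97.3, 275 and 358 CPM in pups 1 to 5, every pup lay below every pup of the resting chondrocytes, by 1.47 ± 0.40 on the log2 scale, a complete separation shared by 25.4% of 10083 genes. Tendon or ligament cells (598 ± 149 CPM) and articular chondrocytes (581 ± 173 CPM) were close to the resting level, whereas endothelial cells (130 ± 51.3 CPM) were at the level of granulocytes (130 ± 38.4 CPM) and macrophages (109 ± 47.3 CPM). Erythroid cells had 454 ± 259.8 CPM (181 to 731 CPM between pups), which overlaps the resting, articular, tendon or ligament and Prlr- and Dpt-led values.

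Amotl2, the angiomotin that is both a target and a restraint of YAP, followed Ccn1 and Ccn2 with a narrower range and a smaller spread between pups. Its level was 289.9 ± 30.0 CPM in the Col10a1-led cluster, 273 ± 21.5 CPM in the proliferating and prehypertrophic chondrocytes, 264 ± 36.4 CPM in the Bmp7- and Notum-led cluster and 258 ± 17.6 CPM in the Aldoc- and H2ac6-led cluster, all overlapping. Resting chondrocytes had 179.9 ± 29.3 CPM, and the 5 pups of the proliferating and prehypertrophic class lay above them by 1.53-fold within pups. Again the Prlr- and Dpt-led cluster lay below resting chondrocytes in every pup, at 69.1 ± 12.1 CPM, and so did tendon or ligament cells, at 104 ± 19.4 CPM (21.4% of 10035 genes were completely lower there). Erythroid cells had 99.3 ± 41.9 CPM (47.9 to 160.1 CPM between pups), which overlaps the values of resting chondrocytes, tendon or ligament cells and the Prlr- and Dpt-led cluster. The plot of these 3 genes by class and pup shows the shared high group of growth plate clusters.

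**Figure D1:**
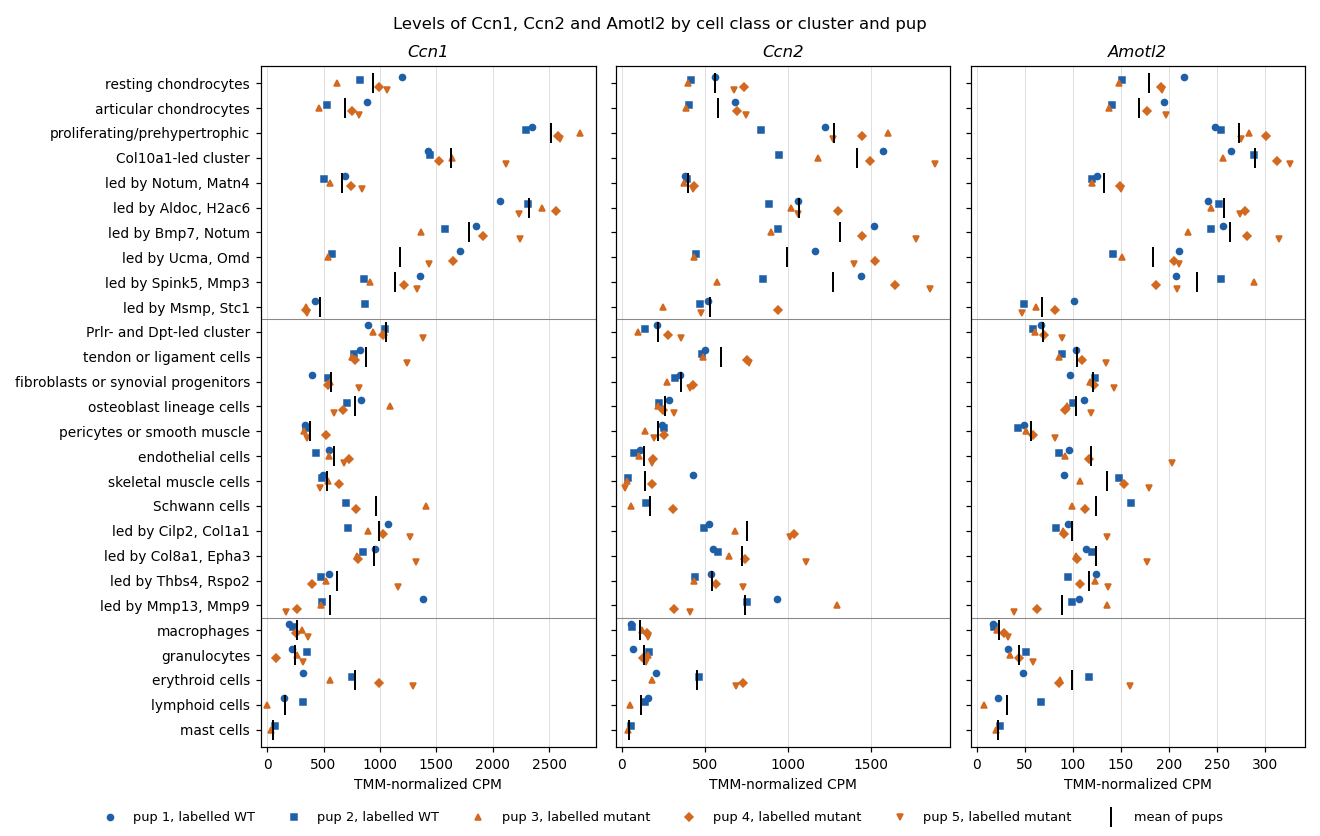
Levels of Ccn1, Ccn2 and Amotl2 in TMM-normalized CPM (horizontal axes) for each class or cluster (rows), with 1 point per pup (blue, labelled WT; orange, labelled mutant) and a black tick at the mean; grey lines separate chondrocyte, other and blood rows. The proliferating and prehypertrophic chondrocytes and the Aldoc-, Bmp7- and Col10a1-led clusters form the right-hand group, with mean Ccn1 between 1631 and 2518 CPM.

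Ccn3 (formerly NOV), a member known to restrain cell growth, had another distribution. It was highest in a cluster of 3190 cells led by Col8a1, Epha3, Igfbp3 and Spon1, at 1453, 1036, 716, 991 and 1021 CPM in pups 1 to 5, and no pup of the next class reached that range. Each pup labelled mutant lay below both pups labelled WT in this cluster, which was not among the classes tested by label. Tendon or ligament cells (503 ± 113 CPM), fibroblasts or synovial progenitors (452 ± 58.3 CPM), a Cilp2- and Col1a1-led cluster (375 ± 105 CPM) and the Prlr- and Dpt-led cluster (361 ± 38.4 CPM) followed and overlapped each other. The tendon or ligament class was uneven, so its separation from the Col8a1- and Epha3-led cluster holds for the class average. Pooled over pups without TMM, its Kera- and Tnmd-led cluster of 4581 cells had 678 CPM and its Chodl-led cluster 154 CPM. The Col8a1- and Epha3-led cluster had 798 CPM on that scale, with a Ccn3 UMI in 71.0% of cells against 80.0% in the Kera- and Tnmd-led cluster. A gap then separated the Prlr- and Dpt-led cluster, with a lowest pup at 327 CPM, from all remaining classes, whose means were 123 CPM or less.

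Within cartilage Ccn3 was low in the named classes. Resting chondrocytes had 33.8 ± 8.12 CPM, articular chondrocytes 37.2 ± 11.7 CPM and proliferating and prehypertrophic chondrocytes 9.48 ± 3.04 CPM. Every pup of the Prlr- and Dpt-led cluster and of the tendon or ligament cells lay above every pup of the resting chondrocytes, as for 23.4% of 10083 and 26.5% of 10035 genes. The level in resting chondrocytes was near that of granulocytes (43.5 ± 16.9 CPM) and macrophages (23.3 ± 9.34 CPM) and below that of erythroid cells (86.3 ± 34.4 CPM), so expression in resting chondrocytes was not resolved from the level in cells that should lack the gene.

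Ccn4 (formerly WISP1), a Wnt-induced member known from osteoblast differentiation, was highest by class mean in a Thbs4-led cluster and in cells named osteoblast lineage. A cluster led by Thbs4, Rspo2, Nos2 and Tnc had 278, 265, 298, 300.4 and 314 CPM in pups 1 to 5, and osteoblast lineage cells 157, 243, 296, 206 and 239 CPM, with the ranges overlapping. The osteoblast class was uneven: its mature cluster, led by Ibsp and Dmp1, averaged 356 CPM and its Ostn- and Alpl-led cluster 188 CPM. At resolution 0.8 only 277 cells of this class kept the osteoblast name and 1257 were named perichondrial. Tendon or ligament cells averaged 182 ± 29.8 CPM, with 365 CPM in a Chodl- and Tnmd-led cluster and 102 CPM in the mitotic tendon cluster. Taken alone, the Ibsp- and Chodl-led clusters averaged more than any pup of the Thbs4-led cluster. Pooled over pups without TMM, the Ibsp-, Chodl- and Thbs4-led clusters had 336, 318.5 and 242 CPM.

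Among chondrocytes Ccn4 was highest at the articular side. Articular chondrocytes comprised 3 clusters led by Prg4 (lubricin) or Cilp and a cluster of 4224 cells led by Lgr6, Chad and Cox4i2, with the articular marker Cilp2 among its leading genes. They had 171 ± 7.42 CPM (172 ± 12.8 CPM with the Lgr6-led cluster left out), and every pup was separated from the next class, which is led by Spink5 and Mmp3; with the Lgr6-led cluster left out, pups 2 and 3 (157 and 161 CPM) fell within its range. Resting chondrocytes had 87.7 ± 4.74 CPM, and every articular value lay above every resting value, by 1.94-fold within pups (log2 0.96 ± 0.06), as for 20.6% of 9785 genes. Proliferating and prehypertrophic chondrocytes (41.1 ± 7.15 CPM) lay below resting chondrocytes in every pup, and the Aldoc- and H2ac6-led cluster had 29.2 ± 3.25 CPM. Erythroid cells had 65.5 ± 22.7 CPM (up to 82.8 CPM), so the levels of these last classes were not resolved from that in erythroid cells, which should lack the gene. The resting values overlapped the erythroid level. Pooled over pups without TMM, the macrophage clusters were lower, at 13.6, 25.2 and 1.86 CPM, and the mitotic cluster of the proliferating and prehypertrophic class had 15.7 CPM. The mean levels of Ccn4 over the articular, resting, and proliferating and prehypertrophic classes were in the opposite order to those of Ccn1, whose articular and resting values overlapped.

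Ccn5 (formerly WISP2), the member that lacks the C-terminal cysteine knot domain of the others, was almost absent except in 1 small cluster. That cluster held 75 cells, between 10 and 24 per pup, and was led by the matrix metalloproteinases Mmp13 and Mmp9 together with Ccn5 itself, Spp1 and Cemip. It had 28.1, 416, 284, 243 and 91.3 CPM of Ccn5 in pups 1 to 5, from 256 UMIs in all. It did not overlap the class next in order by mean, although pup 2 of the pericytes or smooth muscle cells exceeded its lowest pup. Next came the Prlr- and Dpt-led cluster with 7.02, 10.4, 14.8, 13.4 and 19.5 CPM (182 UMIs), above resting chondrocytes (1.69 ± 0.27 CPM) in every pup. Erythroid cells had 2.26 ± 1.78 CPM (up to 4.66 CPM), which overlaps the resting level and that of the proliferating and prehypertrophic chondrocytes (3.56 ± 1.18 CPM). In pericytes or smooth muscle cells the mean of 10.6 CPM came from pup 2, which had 41.9 CPM, while the other 4 pups had at most 7.36 CPM.

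**Figure D2:**
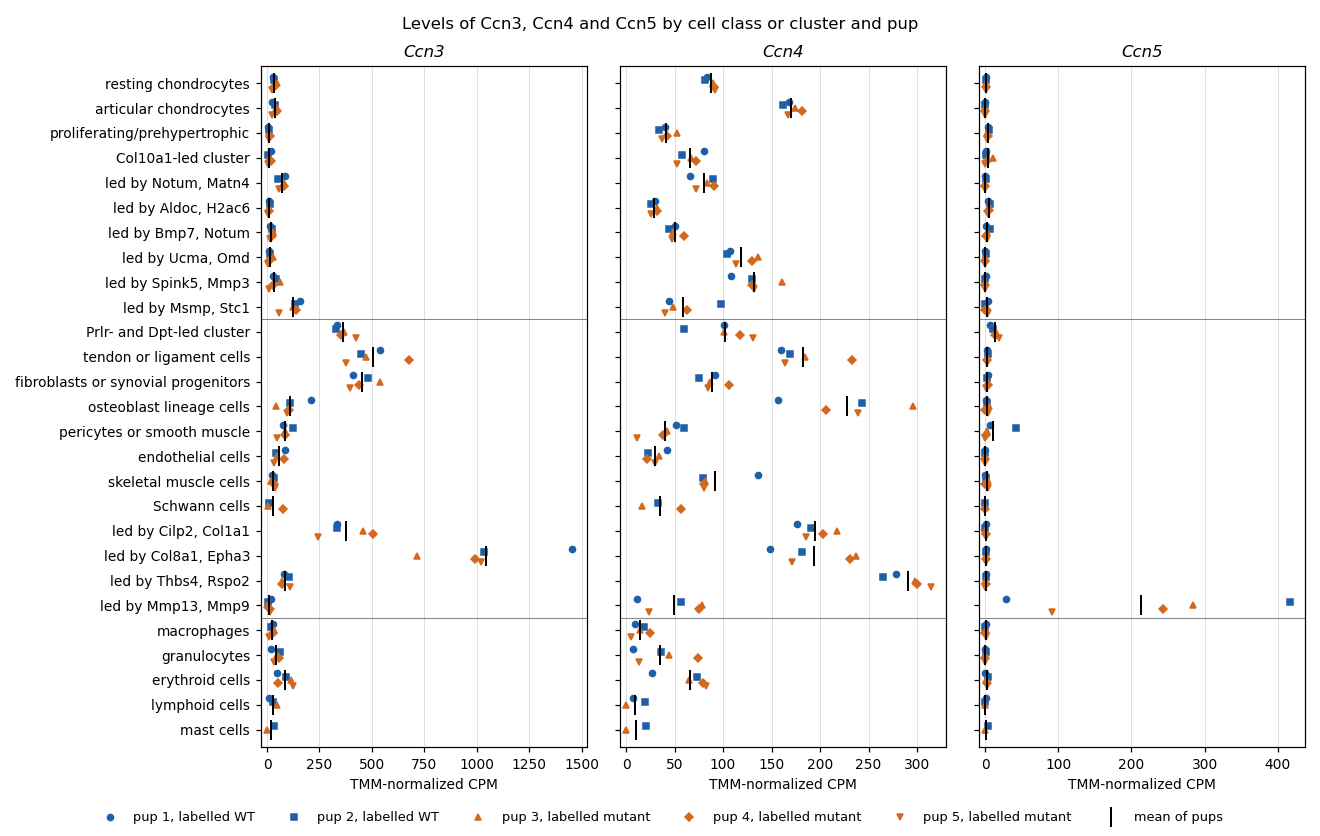
Levels of Ccn3, Ccn4 and Ccn5 in TMM-normalized CPM (horizontal axes) for each class or cluster (rows), with 1 point per pup (blue, labelled WT; orange, labelled mutant) and a black tick at the mean. By the mean of each row, Ccn3 is highest in the Col8a1- and Epha3-led cluster (mean 1043 CPM), Ccn4 in the Thbs4- and Rspo2-led cluster (291 CPM) and Ccn5 in the Mmp13- and Mmp9-led cluster (213 CPM, 28.1 to 416 CPM between pups). Rows that join several clusters average over them.

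The co-activator genes were broadly expressed, and both were lower in proliferating and prehypertrophic than in resting chondrocytes. By class mean Yap1 was highest in a chondrocyte cluster led by Notum and Matn4, at 148, 157, 194, 206 and 208 CPM in pups 1 to 5. Articular chondrocytes had 144, 159, 193, 190.3 and 196 CPM. Taken alone, 2 of the articular clusters, led by Prg4 and Vit and by Cilp and Vit, averaged more than either, at 226 and 224 CPM. Pooled over pups without TMM, the Msmp- and Stc1-led cluster had 217 CPM and the Notum- and Matn4-led one 189 CPM. Resting chondrocytes had 141 ± 22.8 CPM. Proliferating and prehypertrophic chondrocytes had 94.6 ± 9.32 CPM, below every resting value, at 0.68 of the resting level within pups, although the cycling cluster of the resting class alone (106 ± 15.4 CPM) overlapped them, and the Col10a1-led cluster had 81.7 ± 16.9 CPM. The Prlr- and Dpt-led cluster (135 ± 14.1 CPM) and tendon or ligament cells (147 ± 21.7 CPM) overlapped resting chondrocytes, while granulocytes (42.9 ± 11.8 CPM) and macrophages (24.5 ± 7.78 CPM) were low. Erythroid cells had 84.2 ± 39.3 CPM, which overlaps the Col10a1-led cluster and the proliferating and prehypertrophic chondrocytes.

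Wwtr1 reached its highest levels in a Ucma- and Omd-led chondrocyte cluster (553 ± 67.7 CPM) and in endothelial cells (550.4 ± 57.3 CPM), where TAZ and YAP are known to act in vessel growth. Pooled over pups without TMM, these had 440 and 612 CPM and Schwann cells 642 CPM, so the order depends on scaling and pooling. The Bmp7- and Notum-led cluster had 462 ± 59.6 CPM, resting chondrocytes 405 ± 66.8 CPM and articular chondrocytes 387 ± 62.8 CPM, with overlapping ranges. Proliferating and prehypertrophic chondrocytes had 263, 239.5, 263, 286 and 291 CPM in pups 1 to 5, below all 5 resting values (364, 359, 349.6, 463 and 492 CPM) at 0.67 of the resting level within pups. Wwtr1 in the Prlr- and Dpt-led cluster (277 ± 38.9 CPM) also lay below resting chondrocytes in every pup. Erythroid cells had 236 ± 82.7 CPM (up to 337 CPM), which overlaps the values of the proliferating and prehypertrophic chondrocytes, the articular chondrocytes and the Prlr- and Dpt-led cluster. The drop from resting to proliferating and prehypertrophic chondrocytes was thus similar for both co-activator genes, whereas the 2 genes parted in the Ucma- and Omd-led cluster, in which Yap1 stood at 115 ± 16.5 CPM, below the resting mean.

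Ankrd1, which encodes a cardiac and skeletal muscle ankyrin repeat protein and is a standard YAP reporter in cultured cells, was scarcely detected. It had 235 UMIs in all classes together, 125 of them in tendon or ligament cells (1.60 ± 1.62 CPM) and 62 in skeletal muscle cells, where pups 1 to 5 had 0, 13.6, 27.0, 11.5 and 17.6 CPM. No UMI was found in 13343 articular chondrocytes, 2554 Prlr- and Dpt-led cells or 296 cells of the Col10a1-led cluster, which allows a share of cells with a UMI of up to 0.0225%, 0.117% and 1.01%; these limits cover counting error only. The growth plate clusters with the highest Ccn1 and Ccn2 therefore had next to no Ankrd1, with 20 UMIs in all of the proliferating and prehypertrophic chondrocytes.

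**Figure D3:**
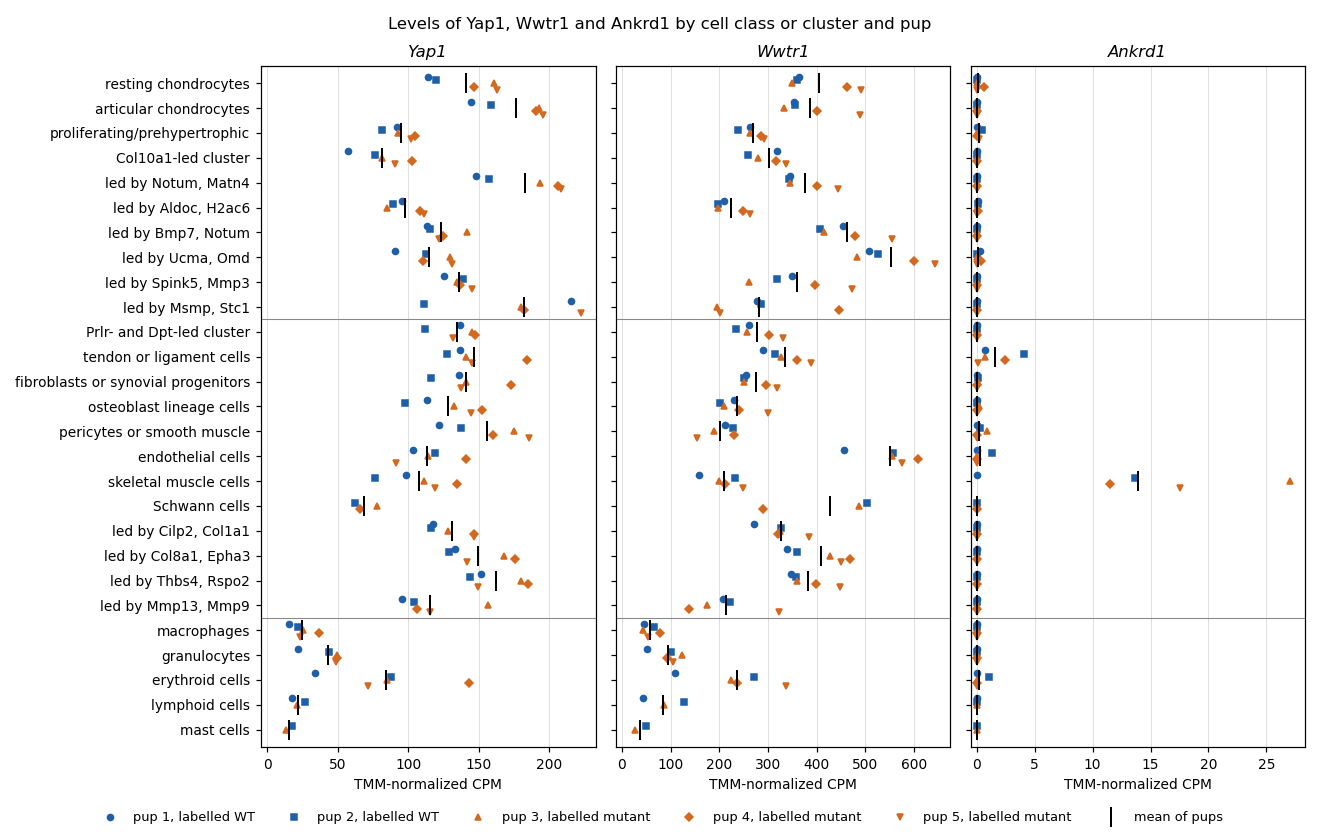
Levels of Yap1, Wwtr1 and Ankrd1 in TMM-normalized CPM (horizontal axes) for each class or cluster (rows), with 1 point per pup (blue, labelled WT; orange, labelled mutant) and a black tick at the mean. Proliferating and prehypertrophic chondrocytes sit left of resting chondrocytes for Yap1 (94.6 against 141 CPM) and Wwtr1 (269 against 405 CPM), and Ankrd1 is above 2 CPM on average only in skeletal muscle cells (13.9 CPM).

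Neighbours in the order of levels mostly could not be told apart. Over the 24 classes or clusters measured in all 5 pups, which give 23 neighbouring steps per gene, the pups of neighbours did not overlap at 2 steps for Ccn3 and Ccn4, at 1 step for Ccn5, Yap1, Wwtr1 and Amotl2, and at none for Ccn1, Ccn2 and Ankrd1.

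Over the 18 chondrocyte clusters some pairs of members ran together and others in opposite directions. As a description, on the log2(CPM + 5) scale, Ccn1 had a Pearson correlation of 0.84 with Amotl2 and 0.78 with Ccn2. Its correlation was -0.75 with Yap1, -0.77 with Ccn3 and -0.77 with Ccn4. Ccn3 and Yap1 were correlated at 0.81, although Ccn3 lay below the erythroid mean in the named chondrocyte classes. Among the other pairs, Ccn3 and Amotl2 had -0.82, Ccn1 and Ccn5 0.73, Ccn4 and Ccn5 -0.72 and Ccn2 and Amotl2 0.70. Ccn5 lay between 0.22 and 5.87 CPM in these clusters, around its erythroid level, so its correlations rest on values near the floor. Weaker values were found for some pairs, such as -0.36 for Ccn2 and Ccn4, -0.20 for Ccn2 and Wwtr1, -0.37 for Amotl2 and Wwtr1 and 0.35 for Yap1 and Wwtr1. Over all 46 clusters, blood and muscle included, several of these signs turned: the correlation was 0.59 for Ccn1 and Yap1, 0.38 for Ccn1 and Ccn4, 0.41 for Ccn2 and Ccn4, 0.62 for Ccn2 and Wwtr1 and 0.75 for Amotl2 and Wwtr1. It was -0.07 for Ccn1 and Ccn3, -0.16 for Ccn3 and Amotl2, 0.12 for Ccn1 and Ccn5 and -0.0062 for Ccn4 and Ccn5, and 0.88 for Yap1 and Wwtr1. The clusters share the same 5 libraries and differ in depth: the median number of UMIs per cell was 12582, 26102 and 23088 in the 3 proliferating and prehypertrophic clusters, 27529 in the Col10a1-led cluster and between 4709 and 7735 in the articular clusters. They also differ in genes induced by tissue digestion. The summed level of 19 such genes (Fos, Jun, Egr1, Atf3 and others) had a correlation of 0.75 with Ccn1 and -0.80 with Ccn4 over the 18 clusters. Over all 46 clusters the values were 0.24 and -0.06. The part of depth and of digestion in these relations was not tested.

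**Figure D4:**
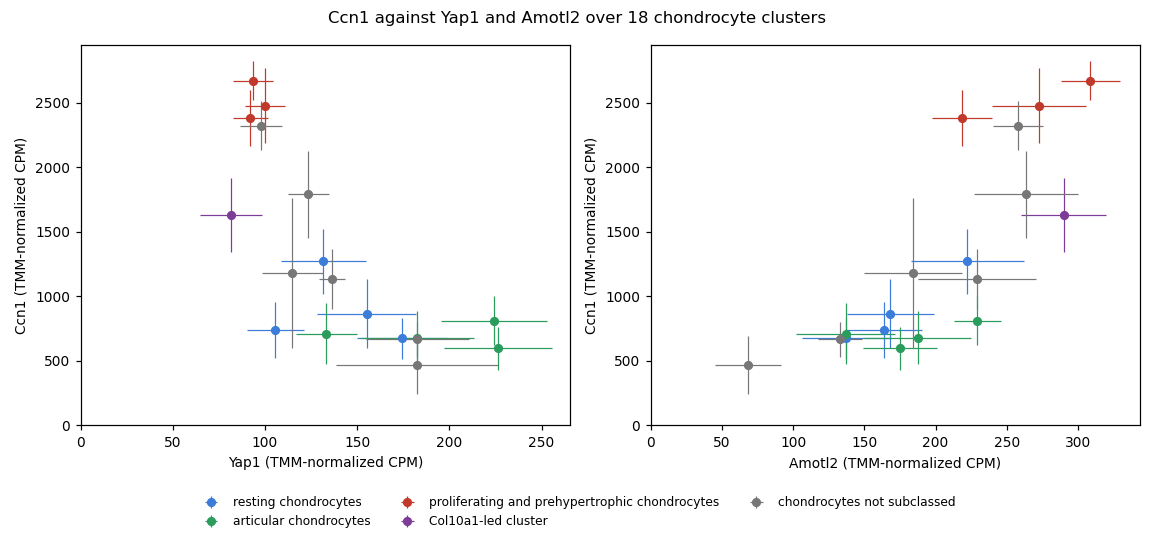
Mean level of Ccn1 (vertical axes) against that of Yap1 (left) and Amotl2 (right), all in TMM-normalized CPM, for the 18 chondrocyte clusters coloured by class; bars are the SD over pups. The 3 proliferating and prehypertrophic clusters and the Aldoc- and H2ac6-led cluster lie at Yap1 levels of 92.0 to 100.03 CPM and at 2323 CPM or more of Ccn1, while the 2 articular clusters with Yap1 of 224 and 226 CPM have 812 and 597 CPM of Ccn1.

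The genes most like each member over the 46 clusters, by Pearson correlation of log2(CPM + 5) among genes averaging 20 CPM or more, were for Ccn1 Nrbp2 (0.88), Fscn1 (0.88) and Hspg2 (0.86), for Amotl2 Hspg2 (0.91), Bpnt2 (0.88) and Lgr4 (0.88), and for Ccn2 Akt1s1 (0.87), Tmed1 (0.86) and Sobp (0.86). Hspg2, which encodes perlecan, a heparan sulfate proteoglycan of cartilage, was thus among the nearest genes of both Ccn1 and Amotl2. The nearest genes of Ccn3 were Fndc1 (0.89), Mfap4 (0.83) and Aspn (0.83), the last 2 encoding proteins of fibrous matrix. Ccn4 was closest to Fkbp7 (0.85), Col5a2 (0.84) and Bmp1 (0.82); Col5a2 encodes a chain of the fibrillar collagen V and Bmp1 a procollagen-processing protease. Yap1 was closest to Amotl1 (0.93), Nrep (0.92) and Lix1l (0.91), and Wwtr1 to Yap1 itself (0.88), Tcaf1 (0.88) and Clstn1 (0.88). Ccn5 (Mmp13, 0.68; Cemip, 0.63; Mmp9, 0.60) and Ankrd1 (Chodl, 0.68; Ncoa1, 0.66; Tanc2, 0.62) had weaker neighbours.

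The share of cells with at least 1 UMI was compared after thinning to 3000 UMIs, since depth differed. Shallower cells were left out, 0 and 21 in the WT-labelled pups and 691, 1162 and 429 in the mutant-labelled ones. Ccn1 was then detected in 92.9% of proliferating and prehypertrophic chondrocytes (98.5% without thinning) and in 53.5% of resting chondrocytes (69.3%), against 23.3% of macrophages (35.4%) at a median depth of 19290, 7617 and 7588 UMIs. Ccn3 was detected in 47.5% of tendon or ligament cells and 46.5% of Prlr- and Dpt-led cells (60.7% and 61.3% unthinned), and in 6.50% of resting chondrocytes (13.7%) against 3.63% of macrophages (6.70%) and 11.5% of erythroid cells (18.3%). Of the erythroid cells, which should lack these genes, 40.0% had a Ccn1 UMI, and their 2 clusters had 979 and 166 CPM of Ccn1; the part of free RNA and of doublets in this was not tested. The same 2 clusters had 42625 and 14056 CPM of Col2a1, so erythroid cells are not a clean floor. The mean share of resting and articular cells with Ccn3 was below the erythroid share and above that of macrophages, so it was not resolved from background. Higher shares were found in the Msmp- and Stc1-led chondrocyte cluster (28.0%, 13.5% to 42.3% between pups) and the Notum- and Matn4-led one (13.3%).

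Thinning changed the order for Yap1. Without it 75.8% of proliferating and prehypertrophic chondrocytes and 57.1% of resting chondrocytes had a Yap1 UMI; at 3000 UMIs the shares were 22.2% and 29.9%, which is the order of the CPM. Articular chondrocytes had 36.0%, erythroid cells 22.0% and macrophages 6.23% at that depth, so the proliferating and prehypertrophic share was not above the erythroid one. Wwtr1 was found in 78.8% of endothelial cells, 39.9% of erythroid cells and 11.8% of macrophages after thinning. For Ccn5, 27.6% of the Mmp13- and Mmp9-led cells and 2.97% of Prlr- and Dpt-led cells had a UMI after thinning, against 0.614% of macrophages and 0.296% of erythroid cells.

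For the comparison of genotype labels, UMIs were summed per pup within each of 6 classes and tested across all genes with edgeR's quasi-likelihood test. The CPM in what follows are scaled within a class and are not on the scale of the levels above. With 2 pups against 3, an exact permutation test of a single gene cannot give p below 0.1, so the test leans on the spread shared across genes. No gene passed an adjusted p of 0.05 in any class, 0% of 8246 to 15717 genes tested; at an unadjusted p under 0.05 there were 944 (6.13%) in resting chondrocytes, 808 (5.73%) in articular chondrocytes, 883 (5.62%) in proliferating and prehypertrophic chondrocytes, 353 (4.28%) in the Col10a1-led cluster, 347 (3.22%) in the Prlr- and Dpt-led cluster and 612 (4.25%) in tendon or ligament cells. DESeq2 called 33, 1, 9, 2, 0 and 1 genes in the same order, none of them a member. Members passed the filter on low counts in 47 combinations of gene and class; 0 passed the adjusted threshold, 8 had an unadjusted p under 0.05, and in 40 the fitted change was higher in the pups labelled mutant. The combinations left out by the filter were Ankrd1 in all classes but tendon or ligament cells, and Ccn5 in articular chondrocytes and the Col10a1-led cluster.

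The median change of the members, labelled mutant over WT on the log2 scale, was 0.13 in resting chondrocytes, 0.16 in articular chondrocytes, 0.22 in proliferating and prehypertrophic chondrocytes, 0.24 in the Col10a1-led cluster, 0.22 in the Prlr- and Dpt-led cluster and 0.21 in tendon or ligament cells, where the median over all genes lay between -0.0077 and -0.0013. These members are few, share libraries and are not independent, so the medians are descriptions. The classes also share pups, and no count over classes is independent evidence. Hemoglobin transcripts, a marker of blood cells, were lower in every pup labelled mutant than in either pup labelled WT in all 6 classes, at 2.65 to 31.7 CPM against 13.9 to 994 CPM, and their part in the differences between labels was not tested.

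In proliferating and prehypertrophic chondrocytes 5 members were higher in each pup labelled mutant than in either pup labelled WT, and Ccn5 was lower, where 9.82% and 12.4% of 15717 genes were so placed. Ccn2 had 1124 and 784 CPM in the WT-labelled pups and 1528, 1351 and 1209.9 CPM in the mutant-labelled ones, a difference of 0.51 on the log2 scale (SE 0.17, edgeR adjusted p = 0.840). Over the alternatives the difference lay between 0.28 and 0.80 and the lowest adjusted p was 0.142. Ccn1 had 2156 and 2154 CPM against 2642, 2402 and 2474 CPM (log2 0.22, SE 0.09, adjusted p = 0.840), so the labels were apart although the difference was small beside that between cell classes. Amotl2 had 228 and 239 CPM against 270.4, 281 and 262 CPM (log2 0.22, SE 0.11). None of these differences passed the test across all genes.

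The digestion-induced genes were lower in each pup labelled mutant in this class. Their summed level was 21632 and 24253 CPM in the WT-labelled pups and 17208, 15696 and 21360 CPM in the mutant-labelled ones, and 13 of the 19 had a fitted change below 0. The share of UMIs from cartilage matrix genes was 16.1% and 15.2% against 15.4%, 15.7% and 15.9%. The part of the lower depth per cell in the pups labelled mutant was not tested.

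Yap1 was apart between the labels in more classes than any other member. In resting chondrocytes it had 100.03 and 108 CPM in the WT-labelled pups and 143, 129 and 145 CPM in the mutant-labelled ones (log2 0.42, SE 0.10, unadjusted p = 0.0031 and adjusted p = 0.734 by edgeR). Over the alternatives the difference lay between 0.35 and 0.48 and the adjusted p between 0.107 and 1.0. That made it 1 of 2 members, with Ccn4, whose pups of the 2 labels did not overlap upward in resting chondrocytes, as for 11.2% of 15409 genes. In articular chondrocytes it had 126 and 138 CPM against 165, 166 and 170.0 CPM (log2 0.34, SE 0.10, adjusted p = 0.823), where 10.9% of 14100 genes were separated upward. The fitted change was above 0 in all 6 classes, between 0.19 and 0.42, and the labels did not overlap in 5 of them, the Prlr- and Dpt-led cluster being the exception (131 and 109 CPM against 138, 142 and 129 CPM). Of 7875 genes tested in all 6 classes, 14.5% had a fitted change above 0 in all of them and 1.26% were apart upward in 5 or more; the classes come from the same 5 pups. Leaving out pup 2 brought the change in the Prlr- and Dpt-led cluster to 0.059, and leaving out pup 4 that in tendon or ligament cells to 0.12. Summed over all cells of a pup, Yap1 stood at 102 and 107 CPM against 127, 126 and 128 CPM. The 5 classes without overlap were picked by that separation, so the place of pup 5, which lacked Xist, in them is no test of sex. Depth per cell and hemoglobin transcripts also separated the pups of the 2 labels, and their part in the Yap1 values was not tested.

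The fitted values of Wwtr1 had the same direction and were smaller. Its fitted change was above 0 in all 6 classes, between 0.08 and 0.26, and the labels were apart in 2; without pup 2 the change in the Col10a1-led cluster turned to -0.075, and without pup 5 that in articular chondrocytes was 0.033. The 2 classes were the proliferating and prehypertrophic chondrocytes (241 and 225 CPM against 251, 267 and 278 CPM) and the tendon or ligament cells (248 and 269 CPM against 278, 306 and 337 CPM). In resting chondrocytes pup 3, at 311 CPM, lay below both pups labelled WT (319 and 324 CPM), while pups 4 and 5 had 408 and 438 CPM.

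The target genes were not ordered like Yap1 in resting chondrocytes. Ccn2 had 492 and 379 CPM in the WT-labelled pups and 355, 648 and 601 CPM in the mutant-labelled ones (log2 0.30, SE 0.25, adjusted p = 0.856), with pup 3 lowest of all, and its change lay between 0.12 and 0.52 without 1 pup. Ccn1 had 1046 and 743 CPM in the WT-labelled pups and 549.9, 877 and 945 CPM in the mutant-labelled ones (log2 -0.18, SE 0.24, adjusted p = 0.916), and Amotl2 had 189 and 136 CPM against 132, 169 and 172 CPM (log2 -0.04, SE 0.17). For Ccn1 and Ccn3 in both resting and articular chondrocytes the fitted sign changed with a covariate for Xist, and no direction is read from them. The summed level of the digestion-induced genes in this class was 19072, 15390, 10314, 15325 and 16823 CPM in pups 1 to 5. Pup 1 was highest, pup 5 next and pup 3 lowest for Ccn1 and for these genes, while pups 2 and 4 changed places, and the part of digestion in the Ccn1 values was not tested. Ccn4 in resting chondrocytes had 72.8 and 74.1 CPM against 80.2, 80.3 and 81.9 CPM (log2 0.14, SE 0.09, adjusted p = 0.819), a separation that came with a very small difference.

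In the Prlr- and Dpt-led cluster all 8 tested members had a fitted change above 0, but only Ccn3 and Ccn5 were apart between the labels, where 8.21% of 10790 genes were separated upward. Ccn3 had 321 and 318 CPM against 349, 336 and 413 CPM (log2 0.19, SE 0.14, and 0.10 without pup 5). The Col8a1- and Epha3-led cluster, where Ccn3 was highest, had the opposite order, with each pup labelled mutant below both pups labelled WT. No test by label was run in that cluster and no share over all genes was counted there, so no direction is read from it. Ccn5 had 6.73 and 10.1 CPM against 14.0, 12.8 and 19.1 CPM, from 18, 63, 59, 26 and 16 UMIs in pups 1 to 5 (log2 0.74, SE 0.28, adjusted p = 0.9996). Ccn4 had 96.9 and 58.1 CPM against 95.7, 113 and 127 CPM (log2 0.53, SE 0.22), so pup 3 overlapped pup 1; the difference was 0.92 without pup 1 and 0.18 without pup 2. For Ccn5 it was 1.10 without pup 2. This cluster held only 161 cells of pup 5, and it carried 28545 to 45788 CPM of digestion-induced genes, the most of the 6 classes.

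Ccn5 was tested in 4 classes, with fitted changes from -0.64 to 0.74. In proliferating and prehypertrophic chondrocytes it had 3.37 and 5.10 CPM in the WT-labelled pups against 2.15, 3.23 and 2.85 CPM (log2 -0.64, SE 0.27, adjusted p = 0.840), the opposite direction to the Prlr- and Dpt-led cluster; without pup 2 it was -0.30. Tested directly, the change in the Prlr- and Dpt-led cluster minus that in proliferating and prehypertrophic chondrocytes was 1.45 (SE 0.40, unadjusted p = 0.0018, edgeR adjusted p = 0.813 over 15127 genes) and did not pass. These 2 classes are set side by side because their pups lay apart in opposite directions, and the unadjusted p does not allow for that choice. The Prlr- and Dpt-led cluster minus resting chondrocytes gave an adjusted p of 1 for every tested member, and 0 of 15100 genes were called (393, or 2.6%, at an unadjusted p under 0.05).

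In the Col10a1-led cluster, with 29 to 104 cells per pup, Ccn1 and Yap1 were higher in each pup labelled mutant, where 10.2% of 8246 genes were. Ccn1 had 1457 and 1468 CPM against 1633, 1493 and 2161 CPM, the last from pup 5, the pup with the fewest cells, and the difference was 0.09 without it. Yap1 had 58.3 and 77.6 CPM against 81.3, 100.2 and 92.7 CPM (log2 0.39, SE 0.19, adjusted p = 0.978), a difference of 0.22 without pup 1 and 0.64 without pup 2. Hemoglobin transcripts reached 994 CPM in pup 2 of this cluster and at most 13.9 CPM in the other 4 pups, so pup 2 carried more blood RNA there. In tendon or ligament cells Yap1 and Wwtr1 were apart (10.4% of 14415 genes were), and Ccn2 had 428 and 413 CPM against 415, 642 and 666 CPM (log2 0.45, SE 0.21, adjusted p = 0.911), with pup 3 among the WT values.

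**Figure D5:**
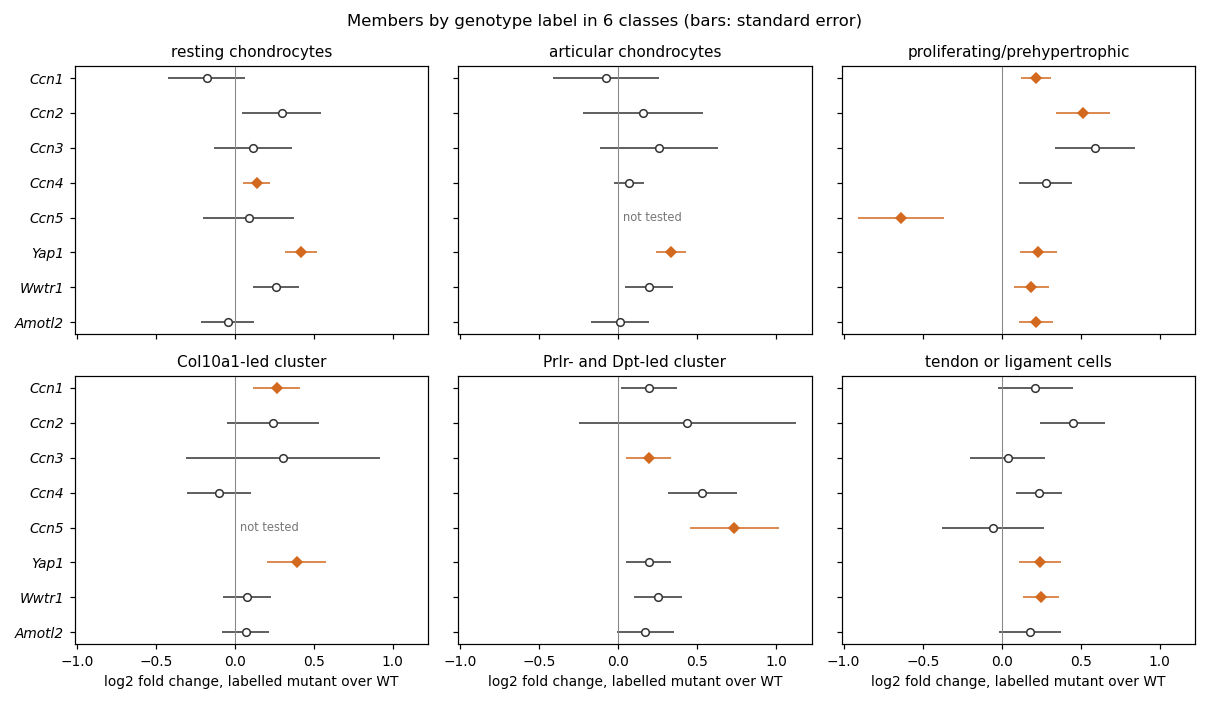
Fitted log2 fold change of each member, pups labelled mutant over pups labelled WT (horizontal axes), in 6 classes; bars are the standard error from edgeR, orange diamonds mark members whose pups of the 2 labels do not overlap and white circles those that do. Yap1 is right of 0 in all 6 classes (0.19 to 0.42), 5 members are orange and right of 0 in proliferating and prehypertrophic chondrocytes, and none passed the adjusted threshold.

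The rest of the pathway showed no call either. Of 28 genes of the Hippo cascade and TEAD factors, 27 were tested in resting chondrocytes, with 0 called, 15 above and 12 below 0 and a median of 0.02; in tendon or ligament cells all 28 were tested, with 0 called, 19 above and 9 below 0. Tead1, a DNA-binding partner of YAP, had the smallest p of this list in tendon or ligament cells (log2 0.42, SE 0.13, adjusted p = 0.911). Of 20 YAP/TAZ target genes outside the members, 0 were called in resting chondrocytes, 14 lay above and 6 below 0, and 4 had an unadjusted p under 0.05. Those with the smallest p were Tgfb2, a TGF-beta ligand (log2 0.62, SE 0.12, adjusted p = 0.509), Fjx1 (log2 0.57, SE 0.14, adjusted p = 0.680) and Ccdc80 (log2 -0.42, SE 0.14, adjusted p = 0.811). In proliferating and prehypertrophic chondrocytes, where 5 members were apart, the same list had 8 above and 12 below 0 and 0 called, with Igfbp3, an IGF-binding protein gene, at 1.23 (SE 0.27, adjusted p = 0.840), and the Hippo list had 10 above and 17 below 0 and 0 called.

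Of 13 CCN receptor genes, 13 were tested in each class and 0 called. In resting chondrocytes 11 were above and 2 below 0; the fibronectin receptor subunit gene Itga5 was at -0.38 (SE 0.14, adjusted p = 0.811) and the integrin subunit gene Itgav at 0.22 (SE 0.10, adjusted p = 0.811). In proliferating and prehypertrophic chondrocytes 7 were above and 6 below 0. For the 19 digestion-induced genes, 0 were called in any class, and the balance turned between classes: 14 were below 0 in resting, 16 in articular and 13 in proliferating and prehypertrophic chondrocytes, whereas 15 were above 0 in the Col10a1-led cluster and 14 in tendon or ligament cells.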

How the data were processed

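Single-cell RNA was measured in 5 pups. The values deposited by the authors are UMI counts for each gene in each cell, made by the platform pipeline against mm10, with no normalization. The members and gene lists were chosen with earlier results of these data known. Barcodes with at least 200 and at most 6000 genes and at most 10% mitochondrial UMIs were kept. Clustering left out the 9 members, the lists of Hippo and TEAD, YAP/TAZ target, CCN receptor and digestion-induced genes, mitochondrial genes and sex-linked genes such as Xist and Ddx3y. The other counts were turned into Pearson residuals (3000 genes), computed and centred within each pup. They were reduced to 50 components and clustered (leidenalg 0.10.2, resolution 1.5). No further integration and no doublet caller was used, so doublets may remain. Clusters were named from at least 3 detected markers, and the Col10a1-led and Prlr- and Dpt-led clusters are called by their leading genes; cycling clusters, led by mitotic genes, kept the class of their other markers. UMIs were summed per pup and class, filtered (filterByExpr), TMM-scaled and tested with edgeR 4.0.16 (quasi-likelihood, robust, R 4.3.3) with Benjamini-Hochberg adjustment over all genes, mutant against WT, 2 pups against 3; p-values measure the spread between littermate pups. Named genes were the 9 members, the 3 genes nearest each member, and up to 3 genes per list by smallest p. Alternatives were DESeq2 1.42.0, RLE factors, no filter on low counts, an Xist covariate, resolution 0.8, no upper limit on genes per cell, no thinning, and leaving out each pup. The counts of members apart between labels, and their alternatives, and the settings that leave the cycling cluster out of the resting class or the Lgr6-led cluster out of the articular class, were added after the data were seen. Scripts were tested on simulated data. Promoter entries for Ccn2, Ccn3, Ccn4 and Ccn5 were not used here.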

Additional observations from a re-analysis of the deposited data

Results flagged for a closer look

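The Ccn5 change between labels pointed in opposite directions in 2 classes: every pup labelled mutant lay above both pups labelled WT in the Prlr- and Dpt-led cluster and below both in proliferating and prehypertrophic chondrocytes. The separately fitted changes differed by 1.37 on the log2 scale (Prlr- and Dpt-led cluster minus proliferating and prehypertrophic chondrocytes). The joint fit of both classes gave 1.45 (SE 0.40, unadjusted p = 0.0018, edgeR adjusted p = 0.813), so the difference did not pass the test across all genes. The pair was flagged for its opposite directions in the same pups, and the unadjusted p does not allow for that choice. The difference rests on 182 UMIs of Ccn5 in the Prlr- and Dpt-led cluster and 423 in proliferating and prehypertrophic chondrocytes. In the latter class the level of Ccn5 overlapped that of erythroid cells, and its change was -0.30 without pup 2. Groups of 2 and 3 pups were too small for the test of single outlying pups.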

How the results depend on the processing

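No paired analysis was possible because each pup number occurs in a single label. Of 532 fitted changes of members over 13 alternatives, 491 kept their direction, 41 reversed and 0 passed the adjusted threshold (smallest adjusted p 0.0932, Ccn4 in the Prlr- and Dpt-led cluster without pup 1). The cause of the reversals was not tested. With an Xist covariate the log2 change was 0.078 for Ccn1, -0.43 for Ccn3 and 0.079 for Amotl2 in resting chondrocytes, 0.20 for Ccn1 and -0.49 for Ccn3 in articular chondrocytes, -1.28 for Ccn3 in the Col10a1-led cluster and -0.37 for Ccn3 in tendon or ligament cells. At resolution 0.8 it was 0.016 for Amotl2 in resting chondrocytes and -0.59 for Ccn3 in the cells named perichondrial there, which are not those of the Prlr- and Dpt-led cluster. Col8a1 and Epha3 were among the leading genes of those cells, and 3197 of them came from clusters unnamed in the main run. With the Lgr6-led cluster left out the log2 change was -0.018 for Amotl2 in articular chondrocytes. With no upper limit on genes per cell it was -0.024 for Ccn5 in resting chondrocytes and -0.46 for Ccn3 and 0.041 for Ccn4 in the Col10a1-led cluster.

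Leaving out 1 pup moved 37 of the 47 fitted changes by over 1.5 times. Signs turned for these members, given as lowest to highest log2 change. In resting chondrocytes the range was -0.40 to 0.11 for Ccn1, -0.13 to 0.33 for Ccn3, -0.013 to 0.25 for Ccn5 and -0.26 to 0.23 for Amotl2. In articular chondrocytes it was -0.40 to 0.35 for Ccn1, -0.17 to 0.59 for Ccn2, -0.022 to 0.61 for Ccn3 and -0.20 to 0.26 for Amotl2. In the Col10a1-led cluster it was -0.084 to 0.66 for Ccn2, -0.47 to 1.22 for Ccn3, -0.35 to 0.14 for Ccn4, -0.075 to 0.23 for Wwtr1 and -0.012 to 0.17 for Amotl2. In tendon or ligament cells it was -0.069 to 0.35 for Ccn1, -0.21 to 0.21 for Ccn3, -0.41 to 0.40 for Ccn5 and -2.26 to 0.70 for Ankrd1.

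Genes called, 0 in each class as reported, numbered 33, 1, 9 and 2 with DESeq2 in resting, articular, and proliferating and prehypertrophic chondrocytes and the Col10a1-led cluster, and 1 in tendon or ligament cells. Without a filter on low counts they numbered 45, 44, 32 and 27 in those chondrocyte classes, 7 in the Prlr- and Dpt-led cluster and 9 for the difference between that cluster and resting chondrocytes. With the Xist covariate 1 was called in the Prlr- and Dpt-led cluster. Leaving out 1 pup gave 0 to 22 calls in resting chondrocytes, 0 to 9 in articular chondrocytes, 0 to 5 in proliferating and prehypertrophic chondrocytes, 0 to 26 in the Col10a1-led cluster, 0 to 7 in the Prlr- and Dpt-led cluster, 0 to 6 in tendon or ligament cells and 0 to 47 for the difference. In resting chondrocytes the 22 calls came without pup 2, 11 without pup 5 and 1 without pup 3. Without pup 5, the pup labelled mutant that lacked Xist, the calls in each class were led by Xist or Ddx3y, and the 5 in proliferating and prehypertrophic chondrocytes were Xist, Ddx3y, Kdm5d, Eif2s3y and Uty, which are sex-linked.

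Members apart upward numbered 1 instead of 2 in resting chondrocytes and in the Col10a1-led cluster at resolution 0.8; members apart downward numbered 1 instead of 0 in articular chondrocytes at that setting and with no upper limit on genes per cell, and in the cells named perichondrial at that setting. The other 47 such counts stayed within 1.5 times. Of 450 class levels under alternatives, 41 moved by more than the SD between pups. These counts, and those of fitted changes, include the other cells named perichondrial at resolution 0.8. Of 14513 resting chondrocytes, 8857 kept that name there, 2896 became articular and 2447 tendon or ligament cells. With no upper limit on genes per cell, a Podn- and Spon2-led cluster of 3020 cells was named perichondrial beside a Prlr-led one of 1984. A Bmp7-led cluster of 3709 cells then joined the proliferating and prehypertrophic class. Shares of cells moved without thinning in 50 of 54 cases. With 2 and 3 pups per label, and with under 100 UMIs of Ccn5 per pup in most classes, changes of the size seen for Ccn5 were not resolved.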
